A study of Mus musculus with 6 samples.

Results

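The tumour suppressor p53 and 9 of its direct transcriptional targets were followed in mouse bone marrow-derived macrophages (BMDMs) that had been co-cultured with ID8 ovarian cancer cells. The 10 genes were picked by symbol, Trp53 (the gene of p53), Cdkn1a, Mdm2, Ccng1, Trp53inp1, Bbc3, Gdf15, Phlda3, Eda2r and Zmat3, out of 54532 genes listed, by a rule that uses the symbols alone. These members were chosen with earlier results of these data known. All 10 passed the filter on low values and were tested. RNA sequencing of poly-T selected RNA gave 6 libraries, 3 from BMDMs cultured with ID8 cells exposed beforehand to 40 µM of cisplatin (a DNA-crosslinking platinum compound) and 3 from BMDMs cultured with ID8 cells pretreated with PBS. The groups are called cisplatin and PBS below for short, although the drug was given to the tumour cells and not to the BMDMs. Both groups therefore contain ID8 co-culture, and no library of BMDMs grown alone was analysed here. Per the study's methods the marrow monocytes came from C57BL/6 mice 6 to 8 weeks old and were kept in RPMI with serum, and neither a genetic change in the mice nor the length of the co-culture is given in the sources used here. The study's methods speak of biological replicates, but the labels and methods do not say if the 3 libraries of a group came from separate cultures or animals. If they did not, the p-values measure only the spread between these libraries, which may be technical.

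p53 is a transcription factor that is held at a low level by Mdm2, the ubiquitin ligase that marks it for degradation, and that is stabilised when DNA is damaged. It then switches on genes of cell cycle arrest, cell death, DNA repair and metabolism, and also Mdm2 itself, which closes a feedback loop. Because p53 is governed largely through its protein, the mRNA of its targets is commonly read as its output. Levels are given as FPKM, in which reads are divided by the length of the gene and by the size of the library, so that genes can be compared per length. Changes are log2 fold changes, cisplatin against PBS, taken after adding 1 FPKM to each value, so that for low genes they come out smaller than the true change.

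The start-site regions of 4 members hold the letters that p53 is known to recognise, and they are shown to set both called members, Mdm2 and Ccng1, and Trp53 itself beside Cdkn1a, the classical target. Windows of 300 bases, 250 before and 50 after the annotated start, were taken from RefSeq on GRCm38.p6, and 8 members had at least 1 window (12 in all), while Trp53inp1 and Zmat3 had none in the table used. The p53 consensus unit of 10 bases was searched by its name as an exact match on both strands, and as a consensus it is its own reverse complement. In the sequences below, written 5′ to 3′ on the gene's strand, capitals mark the matched unit, or in Cdkn1a a pair of units with no base between them.
Mdm2, chr10:117710915-117710964, minus strand: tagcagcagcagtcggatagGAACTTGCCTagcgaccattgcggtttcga
Ccng1, chr11:40755442-40755491, minus strand: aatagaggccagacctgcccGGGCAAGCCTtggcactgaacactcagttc
Trp53, chr11:69580264-69580313, plus strand: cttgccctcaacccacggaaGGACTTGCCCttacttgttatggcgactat
Cdkn1a, chr17:29090908-29090967, plus strand: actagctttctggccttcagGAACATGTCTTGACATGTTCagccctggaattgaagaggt
The Cdkn1a pair lies 51 to 32 bases before the start in 1 of the 2 windows of this gene, and the other window holds neither unit nor pair. Each unit of a pair was allowed at most 1 mismatch, and only outside its central C, A or T, A or T, and G. The 10 bases before the Ccng1 unit differ from the consensus at 1 of those central bases, so they make no pair by this rule. Over all 32851 windows, 8.36% hold an exact unit and 1.39% hold such a pair with at most 13 bases between the units. None of the windows of Bbc3 (3), Gdf15 (2), Phlda3 (1) and Eda2r (1) holds an exact unit, which says only that these letters are not in these windows, and a match is a description of the letters and not of binding.

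Mdm2 and Ccng1 rose in the cisplatin group on the FPKM as deposited, while Cdkn1a did not pass the test, and neither rise was called when libraries were scaled by Y-linked genes. A gene was called when limma gave a Benjamini-Hochberg adjusted p under 0.05 over the 13441 genes tested and the fold change was at least 1 on the log2 scale in either direction. By this rule 2 of the 10 members were called higher, where 4.67% of all tested genes were called higher. No member was called lower by limma, where 11.3% of all tested genes were, and the count was also 0 at an unadjusted p under 0.05 and by limma voom, which called 13.9% of all tested genes lower. On the adjusted p alone, 5 members were higher (32.9% of all tested genes) and 0 were lower (35.1% of all tested genes), while limma voom on the recovered reads gave 7 higher (39.2% of all tested genes) and 0 lower (32.1%). Under voom the median log2 fold change over all tested genes was 0.09. The same 5, Trp53, Mdm2, Ccng1, Eda2r and Gdf15, are those whose groups did not overlap, but 72.4% of all tested genes did not overlap between groups either. With the Y-linked scaling Trp53, Eda2r and Gdf15 turned to the lower side, as given further on. The median log2 fold change was 0.25 over the members and -0.0011 over all tested genes, with 9 members above 0 and 1 below.

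The BMDM label was checked against marker genes, and markers of other cell types were present as well. Macrophage markers were expressed in every library, among them Adgre1 (F4/80, 103 FPKM ± 1.05, SD, n = 3, in PBS and 190 ± 3.52 in cisplatin) and Csf1r, the receptor for macrophage colony-stimulating factor. Their summed level over 9 genes was 1638 to 1649 FPKM in PBS and 4191 to 4346 in cisplatin, and all 9 were higher on the adjusted p. Lyz2 made up most of that sum, and the other 8 genes summed to 476 to 491 and 779 to 794 FPKM. The 15 ID8 and mesothelial markers summed to 1308 to 1412 FPKM in PBS and to 242 to 262 in cisplatin. All 9 of them that were tested were lower on the adjusted p, Krt19 by the most (588 ± 28.8 against 51.1 ± 3.80 FPKM). Krt7, Epcam, Pax8, Muc16, Lrrn4 and Igfbp5 were near 0 in all libraries, and Igfbp5 is among the study's own tumour cell markers. B cell genes such as Cd79a (63.9 ± 3.62 against 147 ± 6.34 FPKM) and 7 of 8 neutrophil and progenitor genes, all but Ly6g, were also higher in cisplatin on the adjusted p. The sum of these 8 genes, most of it S100a8 and S100a9, was 4743 to 4906 against 8814 to 9064 FPKM, while of the T cell genes Cd3e was at 0.17 to 0.42 FPKM and Cd8a at 1.68 ± 0.22 against 2.53 ± 0.15 (limma adjusted p = 0.00594). In bulk RNA, fewer cells of a type and less RNA per cell cannot be told apart. The part of these shifts in the members' values was not tested. Recovered reads ranged from 15776238 to 17924686 per library, and libraries correlated at r = 0.984 to 0.989 within a group and 0.871 to 0.877 between groups.

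**Figure D1:**
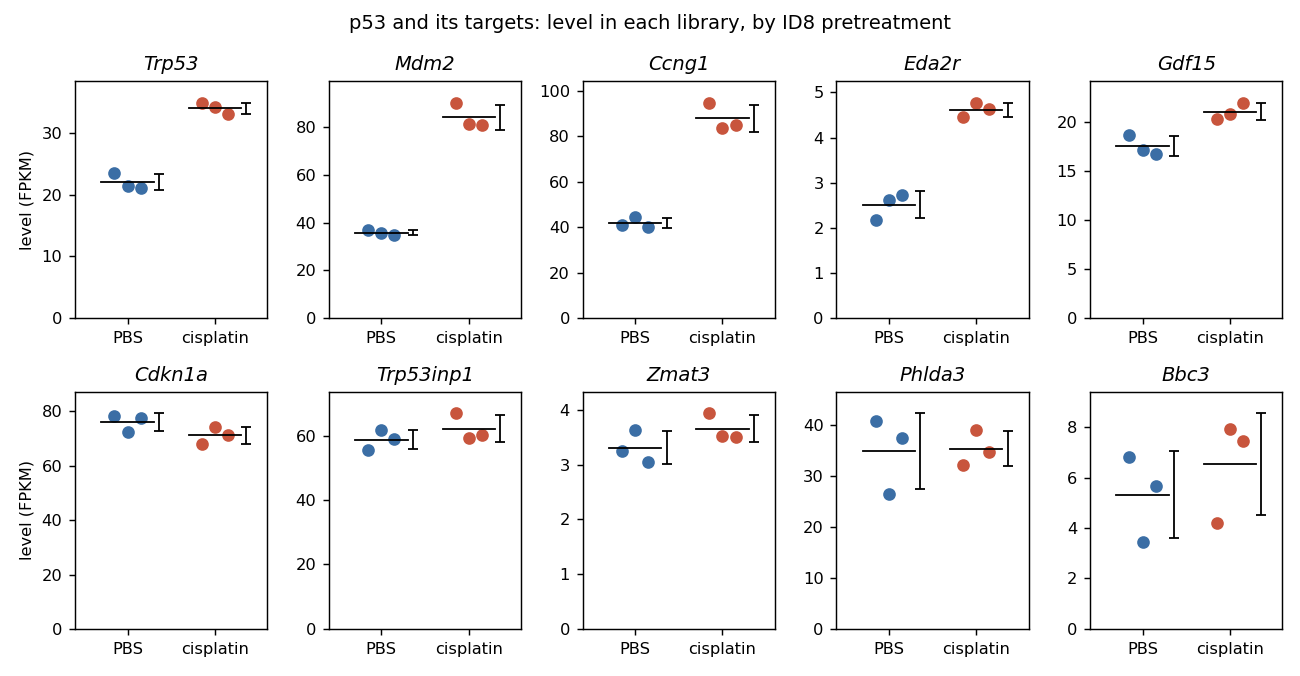
Level of each member in FPKM as deposited on a linear axis from 0, by ID8 pretreatment. Points are libraries (replicates 1, 2 and 3 from left to right), the line is the mean of 3 and the bar beside it the SD. The cisplatin libraries lie above all PBS libraries for Trp53, Mdm2, Ccng1, Eda2r and Gdf15, and the groups overlap for the other 5.

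Trp53 itself was higher in cisplatin without reaching the fold threshold. Its level was 23.5, 21.5 and 21.1 FPKM in PBS replicates 1, 2 and 3 and 34.8, 34.2 and 33.0 FPKM in cisplatin replicates 1, 2 and 3. All cisplatin libraries lay above all PBS libraries, and the ratio of the means was 1.54. The log2 fold change was 0.61 (SE 0.050, 95% interval 0.49 to 0.73, limma adjusted p = 4.35e-05), so the gene was not called. The gene (ENSMUSG00000059552) lies on GRCm38 at chr11:69580359-69591873, plus strand, and 1322 to 2393 reads per library stood behind these values.

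Mdm2, the ligase and feedback inhibitor of p53, had the largest difference of the members. It measured 37.0, 35.8 and 34.8 FPKM in the PBS replicates and 90.4, 81.3 and 81.1 FPKM in the cisplatin replicates. All cisplatin libraries lay far above all PBS libraries, on 2743 to 7813 reads per library. Mdm2 rose by 1.21 on the log2 scale (SE 0.052, 95% interval 1.08 to 1.33, limma adjusted p = 1.88e-06), from 35.9 ± 1.12 to 84.3 ± 5.30 FPKM (SD, n = 3). Its log2 fold change stood at percentile 97.4 of all tested genes. It also passed limma's treat test, which asks whether a change exceeds 1 on the log2 scale (adjusted p = 0.0334). The gene (ENSMUSG00000020184) lies at chr10:117688875-117710758 on the minus strand.

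Ccng1 encodes cyclin G1, an atypical cyclin that recruits the phosphatase PP2A to Mdm2. Its levels were 41.1, 44.4 and 40.1 FPKM in PBS and 94.7, 83.7 and 85.1 FPKM in cisplatin, again with no overlap. It rose by 1.05 on the log2 scale (SE 0.061, 95% interval 0.90 to 1.2, limma adjusted p = 7.85e-06), at percentile 95.8 of all tested genes. The call rests on cisplatin replicate 1, the highest library, because without it the log2 fold change was 0.996, just under the threshold, at an adjusted p of 2.82e-05. Ccng1 did not pass the treat test (adjusted p = 1). It lies at chr11:40748552-40755311, minus strand (ENSMUSG00000020326).

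Cdkn1a encodes p21, the cyclin-dependent kinase inhibitor through which p53 arrests the cell cycle. It was the member with the highest level in PBS, with 78.2, 72.3 and 77.7 FPKM, and in cisplatin it measured 68.0, 74.2 and 71.3 FPKM. The groups overlapped, since cisplatin replicate 2 lay above PBS replicate 2. The log2 fold change was -0.10 (SE 0.048, 95% interval -0.21 to 0.02, limma adjusted p = 0.118), on 4003 to 4917 reads per library, so the interval reaches no rise larger than 0.02. Without PBS replicate 2 it was -0.13 at an adjusted p of 0.0474. Cdkn1a (ENSMUSG00000023067, chr17:29090976-29100727, plus strand) is the only member whose exons overlap another gene, AC167363.2 on the other strand. The overlap covers 273 bases, or 7.68% of its exon bases, and that gene reached at most 2.37 FPKM. No source used here says if reads were counted by strand.

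The order of levels changed between the groups. In PBS the means ran from Cdkn1a (76.1 FPKM) through Trp53inp1 (58.8), Ccng1 (41.8), Mdm2 (35.9), Phlda3 (34.8), Trp53 (22.0) and Gdf15 (17.5) to Bbc3 (5.32), Zmat3 (3.31) and Eda2r (2.51). In cisplatin Ccng1 (87.8 FPKM) and Mdm2 (84.3) stood above Cdkn1a (71.2) and Trp53inp1 (62.1). Next came Phlda3 (35.2), Trp53 (34.0), Gdf15 (21), Bbc3 (6.53), Eda2r (4.62) and Zmat3 (3.65). Neighbours whose libraries overlapped were Mdm2 and Phlda3 as well as Bbc3 and Zmat3 in PBS. In cisplatin they were Ccng1 and Mdm2, Phlda3 and Trp53, and Bbc3 and Eda2r.

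Ratios to Cdkn1a within a library do not depend on how libraries are scaled, and this comparison was chosen after the values were seen. The log2 ratio of Mdm2 to Cdkn1a was -1.08, -1.01 and -1.16 in the PBS replicates and 0.41, 0.13 and 0.18 in the cisplatin replicates. Mdm2 was thus below Cdkn1a in every PBS library and above it in every cisplatin library. The difference of the mean log2 ratios was 1.33 for Mdm2, 1.17 for Ccng1, 0.98 for Eda2r, 0.72 for Trp53 and 0.36 for Gdf15. In each of these 5 the groups did not overlap and the two-sided exact permutation test gave p = 0.1 (0.18 adjusted over the 9 ratios), the smallest that 3 libraries against 3 allow. The share of all tested genes whose ratio to Cdkn1a did not overlap was not computed. On the FPKM itself 72.4% of them did not overlap. Bbc3 (0.39), Zmat3 (0.24), Trp53inp1 (0.18) and Phlda3 (0.13) overlapped, with exact p = 0.3, 0.3, 0.3 and 0.6.

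**Figure D2:**
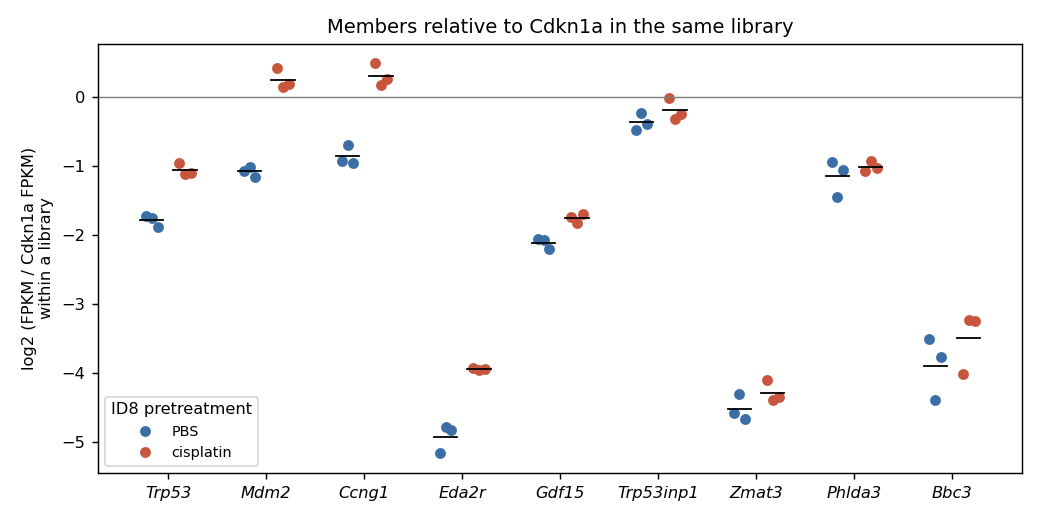
Log2 ratio of each member's FPKM to that of Cdkn1a in the same library. Points are libraries, coloured by ID8 pretreatment, and short lines are means of 3. For Mdm2 and Ccng1 the ratio lies below 0 in all PBS libraries and above 0 in all cisplatin libraries.

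Eda2r and Gdf15 had no call, but their groups did not overlap. Eda2r, a receptor of the tumour necrosis factor receptor family that binds ectodysplasin A2, measured 2.18, 2.63 and 2.74 FPKM in PBS and 4.45, 4.77 and 4.64 FPKM in cisplatin. Its log2 fold change was 0.68 (SE 0.079, limma adjusted p = 0.000250), and 0.86 with a pseudocount of 0.1 FPKM. On reads with limma voom it was 0.98, where the median of all tested genes was 0.09. Eda2r had the fewest reads of the 5 that differed, 227 to 461 per library, and lies at chrX:97333840-97377216, minus strand (ENSMUSG00000034457). Gdf15, a secreted cytokine of the transforming growth factor beta family, measured 18.7, 17.1 and 16.8 FPKM in PBS and 20.3, 20.8 and 22.0 FPKM in cisplatin. Its difference was small, 0.25 on the log2 scale (SE 0.054, 95% interval 0.12 to 0.38, limma adjusted p = 0.00530), although the groups did not overlap. Gdf15 (ENSMUSG00000038508) lies at chr8:70629393-70632456, minus strand.

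Trp53inp1 and Zmat3 did not pass the test on the FPKM, and their log2 fold changes were at most 0.25 under every alternative run on them but the Y-linked scaling, where both were negative. Zmat3 and Eda2r did not pass the filter at 5 FPKM and have no value under it. Trp53inp1, a stress-induced nuclear protein that promotes p53 activity and autophagy, measured 55.6, 61.6 and 59.1 FPKM in PBS and 66.9, 59.3 and 60.1 FPKM in cisplatin. Its log2 fold change was 0.08 (95% interval -0.07 to 0.22, limma adjusted p = 0.290). Zmat3, an RNA-binding zinc finger protein that regulates splicing, measured 3.26, 3.64 and 3.05 FPKM in PBS and 3.94, 3.52 and 3.51 FPKM in cisplatin. The log2 fold change was 0.11 (95% interval -0.07 to 0.30, adjusted p = 0.242). By limma voom the adjusted p fell under 0.05 in both, for Trp53inp1 at 0.17 (adjusted p = 0.00454) and for Zmat3 at 0.23 (adjusted p = 0.0136). For Zmat3 it did so also with quantile normalisation (0.25, adjusted p = 0.0211). The median of all tested genes was 0.09 with voom and 0.10 with quantile normalisation. In both genes PBS replicate 2 and cisplatin replicate 1 were the highest of their groups. They lie at chr4:11156431-11174379, plus strand (Trp53inp1, ENSMUSG00000028211), and chr3:32334792-32366014, minus strand (Zmat3, ENSMUSG00000027663).

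Bbc3 and Phlda3 varied most among replicates. Bbc3 encodes Puma, a BH3-only protein that triggers apoptosis, and measured 6.84, 3.45 and 5.68 FPKM in PBS and 4.21, 7.91 and 7.47 FPKM in cisplatin. Cisplatin replicates 2 and 3 lay above all PBS libraries and cisplatin replicate 1 among them, so the groups overlapped in part. The log2 fold change was 0.25 with a 95% interval of -0.40 to 0.90 (limma adjusted p = 0.440), so a difference of up to 0.90 in favour of cisplatin lies within it. It was 0.02 without PBS replicate 2 and 0.50 without cisplatin replicate 1, the lowest libraries of their groups, 0.43 without PBS replicate 1, and 0.11 and 0.15 without cisplatin replicates 2 and 3. Phlda3, a pleckstrin-homology protein that restrains Akt, measured 40.6, 26.4 and 37.3 FPKM in PBS and 32.1, 38.9 and 34.7 FPKM in cisplatin. Its log2 fold change was 0.04 (95% interval -0.34 to 0.41, adjusted p = 0.852), and without PBS replicate 2 it was -0.14. The coefficient of variation of Bbc3 was 32.4% in PBS and 31.0% in cisplatin, where counting error alone gives 7.33% and 6.59%. For Phlda3 it was 21.3% and 9.71%, against 3.36% and 3.31% from counting. Bbc3 lies at chr7:16308393-16318205 (ENSMUSG00000002083) and Phlda3 at chr1:135766119-135769136 (ENSMUSG00000041801), both on the plus strand.

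The low libraries of Bbc3 and Phlda3 were the same that were low in GC-rich genes in general. Bbc3 has a GC content of 65.2%, Phlda3 of 62.6% and Gdf15 of 61.3%, and these are the 3 members above 60%. Over the 493 tested genes with a GC content of 60% or more, the median deviation from the group mean was -0.071 on the log2 scale in PBS replicate 2 and -0.073 in cisplatin replicate 1, while the other 4 libraries lay between 0.025 and 0.052. In genes under 45% GC the same libraries were the high ones, at 0.042 and 0.049, and Ccng1 and Trp53inp1, with GC contents of 40.8% and 38.8%, were highest in them. Eda2r, with 40.9% GC, did not follow, being highest in PBS replicate 3 and in cisplatin replicate 2, and the GC-rich Gdf15 was lowest in PBS replicate 3 but, in cisplatin, in replicate 1. After a loess fit on GC content was removed from each library, an alternative added after seeing the data, the SD of Bbc3 on the log2 scale was 0.33 in PBS (0.42 without the correction) and 0.33 in cisplatin (0.43 without it). The SD did not become smaller everywhere, since that of Eda2r in cisplatin was 0.079 (0.041 without it), that of Trp53 in cisplatin 0.060 (0.037), that of Mdm2 in PBS 0.052 (0.044) and that of Gdf15 in cisplatin 0.058 (0.056). The log2 fold changes were then 0.49 for Bbc3 (limma adjusted p = 0.0782), 0.24 for Phlda3 (adjusted p = 0.108) and 0.43 for Gdf15 (adjusted p = 0.000289). Those of Mdm2 (1.2) and Ccng1 (1.05) stayed close to the values above.

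**Figure D3:**
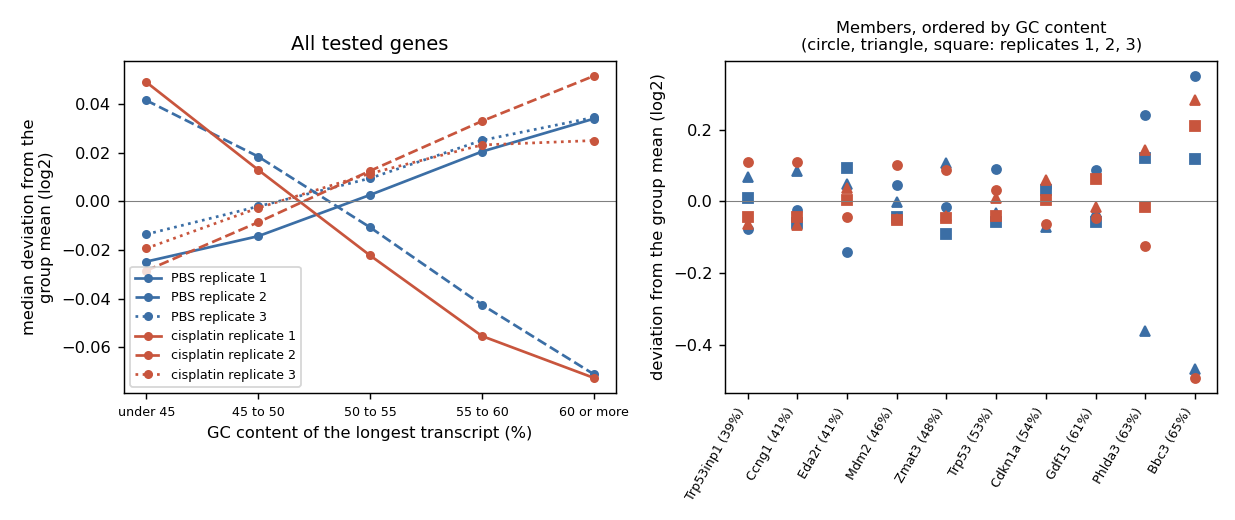
Left, median deviation of each library from its group's mean (log2 scale) by GC class of the longest transcript, over all tested genes. Right, the same deviation for each member, ordered by GC content. PBS replicate 2 and cisplatin replicate 1 run opposite to the other 4 libraries, and Bbc3 and Phlda3 have the widest spread.

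Scaling by the Y-linked genes moved all genes down together. Of the 9 members above 0, 7 were then below 0, as were 82.7% of all tested genes that had been above 0, so the turn is not particular to the members. ID8 is a line from a female mouse, so Uty, Kdm5d, Ddx3y and Eif2s3y, which lie on the Y chromosome, are absent from it, and in this alternative libraries were rescaled so that the geometric mean of these 4 genes was equal. Over all tested genes the median then went from -0.0011 to -0.83, and values below are given beside that shift. The methods give no sex for the mice that supplied the marrow, while the mice injected with tumour cells were female, and the scaling takes these genes as a measure of the BMDMs. They differed among themselves, from 8.10 to 19.2 FPKM for Ddx3y and from 10.7 to 17.8 FPKM for Eif2s3y, while Xist, the RNA of the inactive X chromosome, went from 42.7 to 7.79 FPKM. Mdm2 was then at 0.23 and Ccng1 at 0.07, while Eda2r was at -0.09, Trp53 at -0.36, Gdf15 at -0.70 and Cdkn1a at -1.08, the last with a call lower. Relative to the shifted median, Mdm2 stood at 1.06, Ccng1 at 0.90, Eda2r at 0.74, Trp53 at 0.47, Gdf15 at 0.13 and Cdkn1a at -0.25. Such a rescaling moves all genes of a library alike, so these distances follow largely from the unscaled values and are no separate evidence. Apart from that scaling, Mdm2 was between 1.16 and 1.32 under the 18 other alternatives, Trp53 between 0.58 and 0.71, and Cdkn1a between -0.13 and -0.01.

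**Figure D4:**
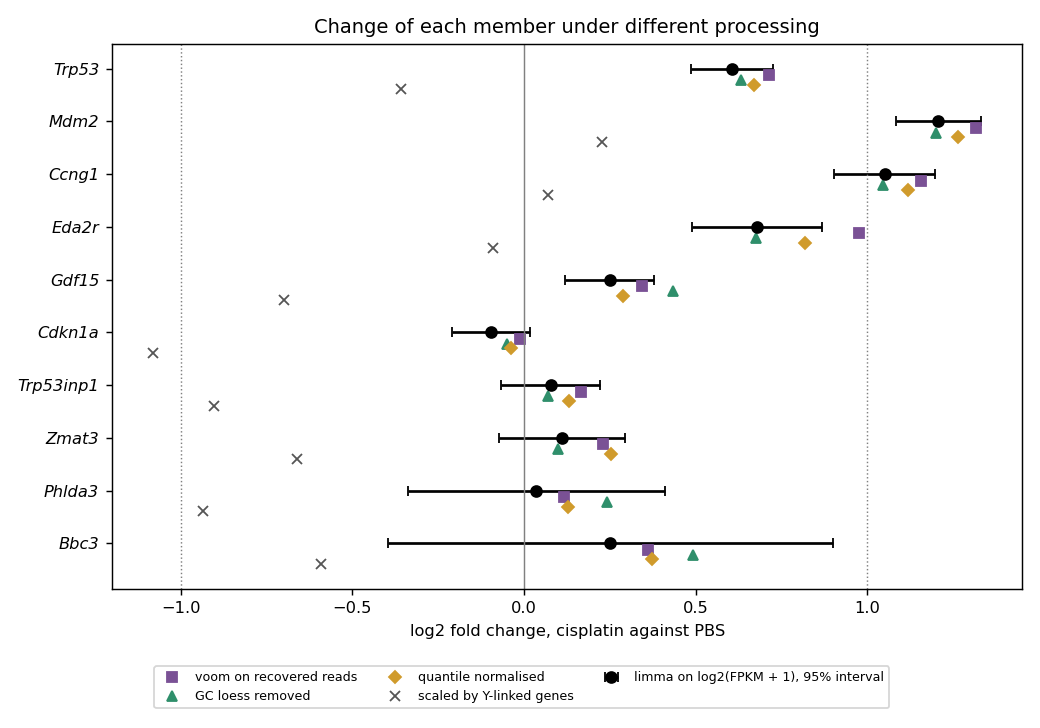
Log2 fold change of each member, cisplatin against PBS, by limma with its 95% interval (black) and under 4 alternatives. Dotted lines mark the call threshold of 1. Crosses, for libraries scaled by the Y-linked genes, lie to the left for every member, from -1.08 for Cdkn1a to 0.23 for Mdm2.

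The other known targets of p53 were taken from a list of 40, chosen with earlier results of these data known, of which 38 were tested. By limma 1 was called higher (4.67% of all tested genes) and 4 lower (11.3% of all tested genes). On the adjusted p alone 16 were higher (32.9% of all tested genes) and 13 lower (35.1% of all tested genes). The median log2 fold change of these targets was 0.10 beside -0.0011 over all tested genes. Cd80, a costimulatory ligand for T cells, rose from 5.18 ± 0.73 to 12.3 ± 0.73 FPKM (log2 fold change 1.11, adjusted p = 5.49e-05). Ddit4, an inhibitor of mTORC1 signalling that stress also induces, fell from 103 ± 11.7 to 22.1 ± 3.02 FPKM (-2.17, limma adjusted p = 5.62e-06). Sulf2, an extracellular sulfatase (-2.15), and Lif, a cytokine of the interleukin-6 family (-1.83), also fell. Sulf2 and Lif belong to the secreted or surface group, where 5 of 6 were lower on the adjusted p, Cd80 alone was higher and the median was -1.41. The ID8 markers moved the same way, with 8 of the 9 tested called lower, and their part in these falls was not tested. The count of targets called higher was 2 without PBS replicate 1, PBS replicate 2 or cisplatin replicate 2, and 3 without cisplatin replicate 1.

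By role, the cell cycle arrest and cell death groups had medians above that of all tested genes, with members on both sides of 0. Limma called none of their genes, where 4.67% of all tested genes were called higher and 11.3% lower. Voom called none of them lower (13.9% of all tested genes), but 1 arrest and 3 cell death genes higher (9.13% of all tested genes). Of 7 tested arrest genes 4 were higher on the adjusted p and 2 lower, median 0.54 on the log2 scale. Of 11 cell death genes 7 were higher and 2 lower, with a median of 0.27. Among all tested genes 32.9% were higher and 35.1% lower on the adjusted p. Examples, chosen after their values were seen, were the apoptosis-inducing nuclease Aen (0.99, adjusted p = 2.52e-05), the pore-forming Bax (0.91, adjusted p = 0.000131) and the kinase Plk3 (0.93, adjusted p = 6.85e-05), all just under the fold threshold. Bax measured 50.7, 45.5 and 47.3 FPKM in PBS and 78.9, 102 and 92.3 FPKM in cisplatin, with no overlap. Lower were Perp, a membrane protein of cell adhesion and apoptosis (-0.57, adjusted p = 0.000420), and the death receptor Fas (-0.31). The DNA repair group (6 tested, 1 higher, 2 lower) and the metabolism and stress group (8 tested, 3 higher, 2 lower) had medians of 0.02 and 0.12. In the second, Rps27l, a ribosomal protein paralogue, was higher by 0.80 (adjusted p = 2.87e-06), and its start-site window holds a pair of units, shown for comparison with Cdkn1a, with capitals for the pair.
Rps27l, chr9:66946276-66946335, plus strand, GRCm38.p6: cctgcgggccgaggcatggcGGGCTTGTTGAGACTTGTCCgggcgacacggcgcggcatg

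Of 19 regulators of p53, 16 were tested, 1 was called higher (4.67% of all tested genes) and 0 lower (11.3%) by limma. At an unadjusted p under 0.05, 3 were lower, and by limma voom 0 were called lower (13.9% of all tested genes). Sirt1, a deacetylase of p53, rose from 4.0, 4.0 and 4.14 FPKM to 12.6, 12.6 and 12 FPKM (log2 fold change 1.41, limma adjusted p = 5.20e-07). Ppm1d, the phosphatase Wip1 that is itself a p53 target and damps p53, was at 6.35 ± 0.14 FPKM in PBS and 10.5 ± 0.36 in cisplatin (0.65, adjusted p = 2.13e-05), short of a call. Mdm4, the partner of Mdm2, was at 18.6 ± 1.5 and 16.8 ± 0.43 FPKM (-0.14, adjusted p = 0.0855). The damage kinases differed little, with Atm at 0.06, Atr at -0.21 (adjusted p = 0.0531), Chek1 at -0.05 and Chek2 at -0.24 (adjusted p = 0.0345). The regulators' median was 0.03. A list of 14 cell cycle genes that p53 represses through the DREAM complex had no call by limma or by voom (4 higher and 5 lower on the adjusted p, the same at an unadjusted p under 0.05, median -0.13). The integrated stress response list of 8 genes had no call by limma and 1 by voom (4 higher and 2 lower on the adjusted p, median 0.14). Among all tested genes 32.9% were higher and 35.1% lower on the adjusted p, and voom called 9.13% higher.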

How the data were processed

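The deposited table gives FPKM for 6 libraries, and the reads and TPM of some alternatives were computed from it. The authors' processing notes name fastp, HISAT2 2.0.5, featureCounts 1.5.0-p3 and mm10, whereas the study's methods name LifeScope for alignment and counting, and the difference was not resolved. FPKM times gene length gave whole reads (within 0.01 read) for 100% of low values. Genes with at least 1 FPKM in at least 3 of 6 libraries were kept (13441 genes). Values were transformed to log2(FPKM + 1) and fitted in limma 3.58.1 under R 4.3.3 (lmFit, eBayes with trend), group as the only term, with Benjamini-Hochberg adjustment over all tested genes. The call threshold follows the study's methods. The procedure was tested on simulated data. Ratios were compared by exact permutation tests in scipy 1.17.1. Start-site windows came from RefSeq. The members and gene lists were chosen with earlier results of these data known. Named genes were all members, every called gene of a p53 list and preset regulators and markers; Aen, Bax, Plk3, Perp, Fas, Rps27l, Cd8a and Ly6g were chosen after their values were seen. Alternatives were 18 planned settings and a GC correction added after seeing the data. The GC content used was that of the longest transcript in GENCODE M21, available for 99.8% of genes. The result of 1 of the other p53 targets is not reported here; the counts and medians of its list include it, and the plot by role leaves it out.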

Additional observations from a re-analysis of the deposited data

How the results depend on the processing

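With the Y-linked scaling, 85 genes were called higher and 5181 lower, the members called were 0 higher and 1 lower, the other p53 targets 0 higher and 13 lower with a median of -0.76, and the regulators 0 higher and 3 lower. Under it Trp53 was at -0.36, Trp53inp1 at -0.90, Bbc3 at -0.59, Gdf15 at -0.70, Phlda3 at -0.93, Eda2r at -0.090 and Zmat3 at -0.66. The cause was not tested.

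The treat test against a log2 fold change of 1 called 240 genes higher and 982 lower, 1 member and 0 other targets higher. On the adjusted p alone the counts were 4424 and 4721 genes, 5 members, 16 and 13 other targets, and 6 and 2 regulators. Limma voom called 1227 genes higher and 5 other targets higher, with a median of 0.20 for these targets, and moved the median of all genes by 0.09. Quantile normalisation gave 3 and a median of 0.20, and moved the median of all genes to 0.10. A pseudocount of 0.1 called 973 genes higher and 4 other targets higher. The GC correction gave 3, and median-of-ratios scaling and TPM gave 2 each. The share of calls that were higher was 29.3% as reported, 39.7% with voom, 39.3% with quantile normalisation, 48.4% on the adjusted p alone and 1.61% with Y-linked scaling.

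Leaving out each library in turn gave 1 to 2 members and 1 to 3 other targets called higher, and medians of the other targets between 0.088 and 0.14. Phlda3 ranged from -0.14 to 0.16, reversing without PBS replicate 2 and without cisplatin replicate 2 (-0.04). Bbc3 ranged from 0.02 (without PBS replicate 2) to 0.50 (without cisplatin replicate 1). Same-numbered libraries did not deviate together (correlations -0.104, -0.0857 and -0.0235). These correlations cannot decide whether the numbers pair libraries, because the GC trend set apart PBS replicate 2 and cisplatin replicate 1, which differ in number. With the replicate block, 625 genes were called higher and 1515 lower, and the counts for members, other targets and regulators did not move. Bbc3 and Eda2r had the fewest reads of the members, 114 to 461 per library. The spread of Bbc3 was still well above its counting error (32.4% against 7.33% in PBS).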
